A study of Arabidopsis thaliana with 46 samples.

Results

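TGA4 cells are Arabidopsis root protoplasts made to overproduce the bZIP transcription factor TGA4, and the question followed here is which of their genes changed when nitrate was the only nitrogen supplied. The comparison sets the 3 libraries of TGA4_5N against the 3 libraries of TGA4_0N, so it takes 6 of the 46 libraries in the series, chosen by their labels and by no measured value. TGA4_5N cells received 5 mM KNO3, with KCl making up the rest of 20 mM salt per the study's methods, and TGA4_0N cells received 20 mM KCl. Both groups came from Col-0 seedlings aged 10 days that had been grown on 1 mM KNO3, and both carried a vector in which TGA4 is fused to part of the glucocorticoid receptor. Both were also given 10 µM dexamethasone, which lets the fusion protein enter the nucleus, and 35 µM cycloheximide, which blocks the making of new protein. Per the study's methods, nitrate or KCl was given first, then cycloheximide, and last dexamethasone. Nitrate therefore acted for a time while new protein could still be made and before the fusion protein was let into the nucleus. The empty-vector groups EV_5N and EV_0N (3 libraries each) had the same treatments without the TGA4 fusion, and TGA4_60N (3 libraries) received 20 mM KNO3 with 20 mM NH4NO3 in place of the lower dose. Per the study's methods, the cells of one vector came from one transfection that was split into wells, and the transfected cells were then collected by sorting on a fluorescent marker. The 3 libraries of a group are therefore wells, and their spread holds no difference between plants or transfections. Cell type and RNA content were not separated in these bulk libraries, so fewer cells of a type and less RNA per cell cannot be told apart.

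Nitrate is both a nutrient and a signal for plant roots. It enters through transporters of the NPF and NRT2 families, is reduced to nitrite by nitrate reductase in the cytosol, and to ammonium by nitrite reductase in the plastid, where ferredoxin supplies the electrons. In roots, which have no photosynthesis to reduce ferredoxin, the electrons come from NADPH of the oxidative pentose phosphate pathway. NIN-like proteins (NLP) bind nitrate-responsive promoters without needing new protein synthesis, and the genes that they switch on include the enzymes of this path as well as repressors of the LBD and HRS1/HHO families, which limit the response.

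The 3 TGA4_5N libraries held 7835278 to 8957844 counts and the 3 TGA4_0N libraries 9605689 to 11261562 counts, so the nitrate libraries were the shallower ones throughout, and 3 counts correspond to between 0.281 and 0.427 CPM in these 6 libraries. CPM is the read count relative to the library's total, on the usual CPM scale of edgeR, with the total adjusted by the trimmed mean of M-values. TGA4 itself had 6541, 6660.0 and 5969.8 CPM in TGA4_5N cells and 5833, 6418 and 6718 CPM in TGA4_0N cells, against 32.1 to 51.6 CPM in the 6 EV libraries of these doses, as the labels state. Its log2 fold change with nitrate was 0.015 ± 0.15 (SE). Markers of the stele summed to between 77.6 and 88.9 CPM in TGA4_5N and between 78.5 and 94.7 CPM in TGA4_0N, whereas 6 markers of green tissue summed to 0.863 to 1.57 CPM in TGA4_5N and 0.946 to 2.16 CPM in TGA4_0N, with RBCS1A and CAB2 at 0 counts in all TGA4_5N libraries and LHB1B1 at 0 in all TGA4_0N libraries. On the first principal component of the 6 libraries (28.5% of the variance), TGA4_5N replicate 2 was at -41.8, with the other 5 between -6.93 and 22.2. All 18 libraries of the N-dose experiment share one estimate of the spread, so a library of another group also bears on the calls. EV_60N replicate 1 was such a library. The nitrite reductase gene NIR1 had 12.5 CPM in it, against 153 and 123 CPM in EV_60N replicates 2 and 3. For the nitrate regulator gene BT1 these values were 6.98, 200 and 125 CPM. In EV_0N, NIR1 had 8.35, 9.69 and 12.7 CPM and BT1 had 6.16, 8.16 and 5.76 CPM. Not every gene differed, and PYL4 had 93.3, 85.1 and 114 CPM in EV_60N.

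Of 18342 genes tested, 50 were called in TGA4_5N against TGA4_0N at an adjusted p under 0.05 (edgeR quasi-likelihood test, Benjamini-Hochberg), and all 50 were higher with nitrate (0.273% of the genes tested called higher, 0% called lower). Their log2 fold changes lay between 0.65 and 5.64 with a median of 1.61, while the median over all genes was -0.0037. In 41 of the 50 the log2 fold change was at least 1, and in 8 it was at least 3. For each of the 50, every TGA4_5N library stood above every TGA4_0N library. Over all genes, 6.6% had the groups apart in this direction and 6.37% in the opposite one, which is why a gap between 3 and 3 libraries alone was not taken as a call. At an unadjusted p under 0.05 there were 435 genes lower and 540 higher, DESeq2 called 2 genes lower and 77 higher, and edgeR on the 6 TGA4 libraries alone called 11 lower and 105 higher. Without EV_60N replicate 1 the count was 84. Leaving out TGA4_5N replicate 1, 2 or 3 gave 24, 23 and 32 calls, and leaving out TGA4_0N replicate 1, 2 or 3 gave 15, 18 and 21. The 50 genes were all among the calls of DESeq2, of the fit on the 6 TGA4 libraries alone and of that without EV_60N replicate 1. Of the 50, 14 stayed called under all 18 alternatives tried.

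**Figure D1:**
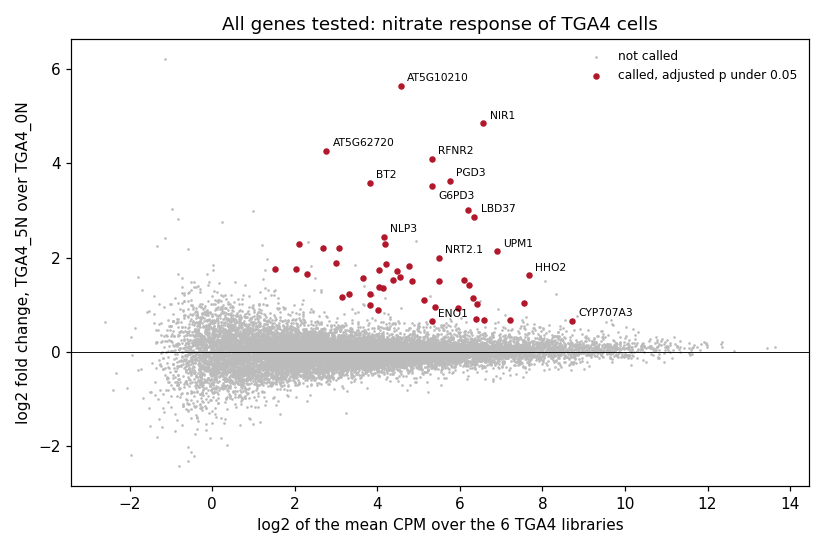
Log2 fold change of each of the 18342 genes tested (TGA4_5N over TGA4_0N, vertical axis) against the log2 of its mean CPM over the 6 TGA4 libraries (horizontal axis). The 50 called genes (red) all lie above 0, between 0.65 and 5.64, and the genes not called (grey) spread to both sides of 0.

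Of the 5 listed genes of nitrate and nitrite reduction, all tested, NIR1 and UPM1 were called higher, none was called lower, and the median log2 fold change was 2.13. Without EV_60N replicate 1, 4 of the 5 were called higher, as they were by DESeq2 and in the fit on the 6 TGA4 libraries alone. Nitrite reductase (NIR1, AT2G15620, chr2:6810395-6812941 in the TAIR10.1 assembly), the plastid enzyme that makes ammonium from nitrite, had 179, 181 and 192 CPM in TGA4_5N and 3.99, 6.94 and 8.04 CPM in TGA4_0N. The gap between the groups was far wider than the spread within either, and the log2 fold change was 4.85 ± 0.55 (SE, n = 3 each, adjusted p = 0.000146, edgeR). UPM1, which makes the precursor of the siroheme cofactor that nitrite reductase needs, had 181, 205 and 197 CPM in TGA4_5N and 41.2, 46.2 and 45.3 CPM in TGA4_0N (log2 fold change 2.13 ± 0.28, adjusted p = 0.000778, edgeR). Both nitrate reductase genes missed the threshold although their groups did not overlap. NIA1 had 52.4, 52.4 and 49.1 CPM in TGA4_5N and 7.88, 10.9 and 11.1 CPM in TGA4_0N, a log2 fold change of 2.36 ± 0.51 with an adjusted p of 0.0531 (edgeR). NIA2, the more strongly read of the pair, had 485, 424 and 445 CPM in TGA4_5N and 167, 202 and 208 CPM in TGA4_0N, with a log2 fold change of 1.23 ± 0.27 and an adjusted p of 0.075 (edgeR). These were the 2 genes added in the other 3 fits. The last member, SIRB, which completes siroheme, had a log2 fold change of -0.17 ± 0.2.

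NIR1 is a gene in which the nitrate-responsive element, the site bound by NIN-like proteins, has been described, so the sequence of its element is shown. The element was searched for as TGACNCTT, then any 10 bases, then AAG, on both strands. Among the 50 called genes it occurred in NIR1 alone, on the gene's own strand at chr2:6810458-6810478 (TAIR10.1), which is 63 bases past the annotated start of the gene, in the 5′ untranslated part of an exon and 73 bases before the coding sequence. The capitals mark the letters that the search required.
NIR1 element: TGACCCTTtacattgctcAAG
In the window that held it, 500 bases before to 200 bases after each annotated gene start, this element was present in 1 of 50 called genes (2%) and in 21 of all 18342 tested genes (0.114%). The first search stopped at the gene start and found it in 0 of 50 called genes and in 14 of all genes (0.0763%), and the window was lengthened after that result was seen. The shorter part TGACNCTT alone was in 5 of the 50 windows (10%), those of NIR1, NLP3, AT5G10210, AT1G16170 and AT2G33550, against 7.53% of all. The core TGACGT of TGA factors was in 7 of 50 (14%) against 18.1% of all, and GATTC, known from sites of HRS1/HHO factors, was in 42 of 50 (84%) against 80.8% of all. A match of letters is a description and no evidence of binding.

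Of 11 listed genes that supply reducing power to nitrite reductase, 10 were tested, 5 were called higher and none lower, with a median log2 fold change of 1.22. Without EV_60N replicate 1 there were 7 calls, and in the fit on the 6 TGA4 libraries alone 8. RFNR2, the root ferredoxin-NADP reductase that passes electrons from NADPH to ferredoxin, had 77.8, 74 and 75.5 CPM in TGA4_5N and 4.2, 5.25 and 3.77 CPM in TGA4_0N (log2 fold change 4.09 ± 0.53, adjusted p = 0.000652, edgeR). G6PD3, a plastid glucose-6-phosphate dehydrogenase and the entry enzyme of the oxidative pentose phosphate pathway, had 80.7, 70.9 and 71 CPM in TGA4_5N and 7.99, 5.63 and 5.96 CPM in TGA4_0N (log2 fold change 3.51 ± 0.43). PGD3, a 6-phosphogluconate dehydrogenase of the next oxidative step, had 101, 98.5 and 101 CPM in TGA4_5N and 9.25, 7.22 and 7.85 CPM in TGA4_0N (log2 fold change 3.63 ± 0.4), with an adjusted p of 0.000146 (edgeR). The sister genes PGD1 and G6PD2 rose by less, with log2 fold changes of 1.87 ± 0.26 and 1.52 ± 0.24. The remaining members were not called. The ferredoxin gene FD3 had 32.6, 32.6 and 28.6 CPM in TGA4_5N and 16.5, 17.5 and 15.4 CPM in TGA4_0N (adjusted p = 0.126, edgeR), and RFNR1, the second root reductase, had 13, 12.7 and 15 CPM in TGA4_5N and 7.36, 6.57 and 7.75 CPM in TGA4_0N (adjusted p = 0.259, edgeR), so both had separate groups without a call, and both were called without EV_60N replicate 1. PGD2 and PGL3 had log2 fold changes of -0.044 and -0.023. All 5 called genes of this list were among the 14 that stayed called under all alternatives. G6PD3 overlaps a neighbour on the other strand (AT1G24290), and strand use in the authors' counting was not stated, so reads in the overlap cannot be assigned with certainty.

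**Figure D2:**
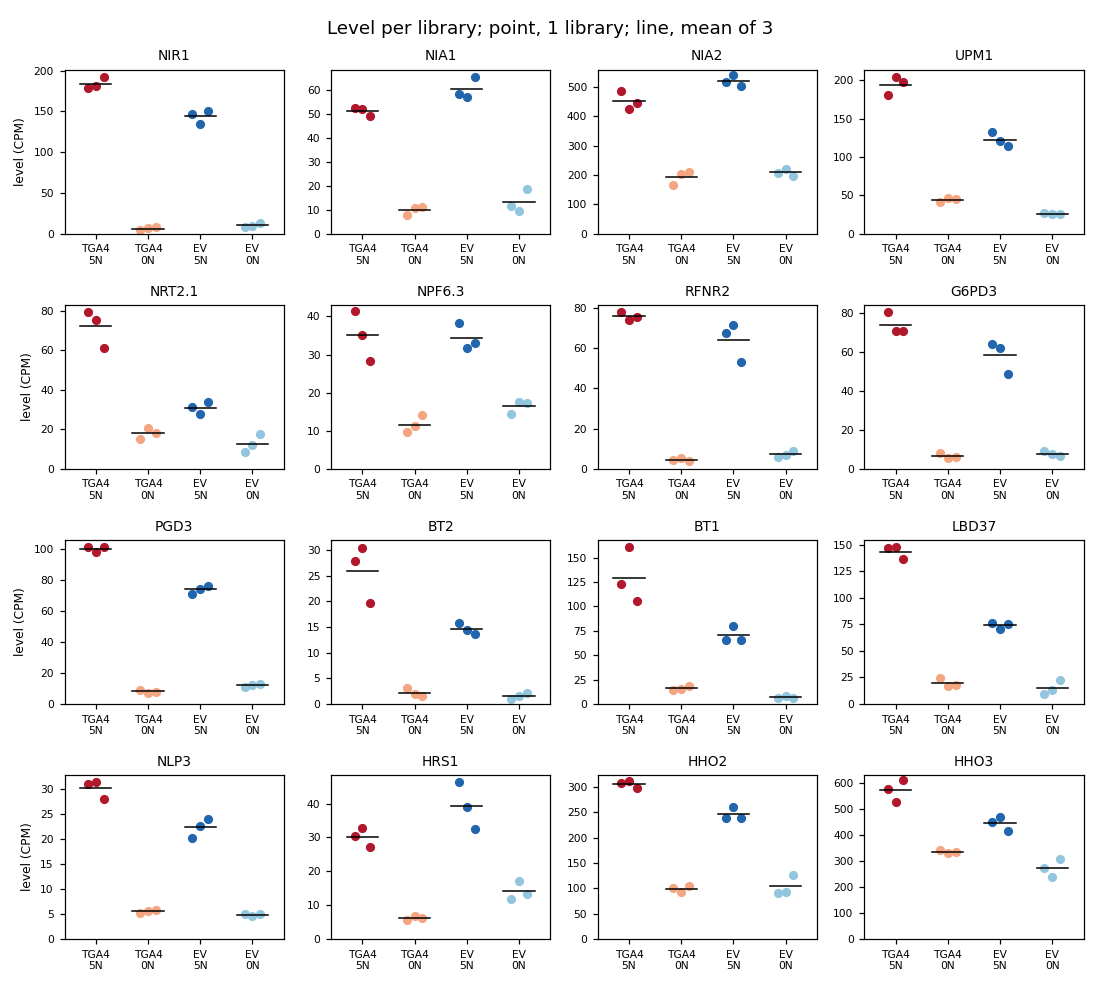
Level in CPM (vertical axis, from 0) of 16 genes of nitrate transport, reduction, reductant supply and regulation in each library of TGA4_5N, TGA4_0N, EV_5N and EV_0N (points, 3 per group) with the group mean (line). In TGA4 cells the 3 TGA4_5N points lie above the 3 TGA4_0N points for each gene shown, also for NIA1, NIA2 and HHO3, which were not called.

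Among 22 listed nitrate transport genes, 18 were tested and 2 were called higher, with a median log2 fold change over the list of 0.21. NRT2.1, the main high-affinity nitrate transporter of roots, had 79.4, 75.4 and 61.2 CPM in TGA4_5N and 15.2, 20.8 and 18 CPM in TGA4_0N (log2 fold change 2.0 ± 0.3, adjusted p = 0.00231, edgeR). Its tandem neighbour NRT2.2 had 5.02, 3.42 and 3.08 CPM in TGA4_5N and 0.526, 1.03 and 0.794 CPM in TGA4_0N (log2 fold change 2.27 ± 0.51, adjusted p = 0.0814, edgeR). The 2 genes are near-identical and may share reads, so the split between them is uncertain. NPF6.3, the dual-affinity transporter that also senses nitrate, had 41.5, 35.2 and 28.4 CPM in TGA4_5N and 9.56, 11.2 and 14.1 CPM in TGA4_0N (log2 fold change 1.59 ± 0.3, adjusted p = 0.0183, edgeR). NRT3.1, the partner protein that NRT2 transporters require, had 267, 290.4 and 225 CPM in TGA4_5N and 203, 187 and 158 CPM in TGA4_0N, with separate groups, a log2 fold change of 0.51 ± 0.16 and no call (adjusted p = 0.407, edgeR). NRT2.5, a transporter known from nitrogen-starved roots, lay on the other side, with 22.1, 14.1 and 21.2 CPM in TGA4_5N and 31.6, 30.8 and 38.1 CPM in TGA4_0N (log2 fold change -0.8 ± 0.34, adjusted p = 0.803, edgeR), and it was called lower in the fit on the 6 TGA4 libraries alone (adjusted p = 0.022). The other 13 tested members were not called either, and their log2 fold changes lay between -0.85 and 0.61.

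Of 28 listed regulators of the nitrate response, 27 were tested, 6 were called higher and none lower, and the median log2 fold change was 0.49. Without EV_60N replicate 1, 11 were called higher, LBD38, HHO3, CDF1 and TGA1 among those added, and in the fit on the 6 TGA4 libraries alone 12. The groups were apart with nitrate higher in 17 of the 27, against 6.6% of all genes, and apart with nitrate lower in 3. The list was chosen with earlier results of these data known, so these counts are a description only. BT2 and BT1, scaffold proteins with BTB and TAZ domains that act in nitrogen use, changed most. BT2 had 27.8, 30.5 and 19.6 CPM in TGA4_5N and 3.05, 1.88 and 1.59 CPM in TGA4_0N (log2 fold change 3.58 ± 0.73, adjusted p = 0.0351, edgeR). BT1 had 123, 161 and 105 CPM in TGA4_5N and 14.4, 15.5 and 18.2 CPM in TGA4_0N (log2 fold change 3.01 ± 0.59). BT2 lost its call under 9 and BT1 under 6 of the 18 alternatives, in both genes whenever any 1 of the 6 TGA4 libraries was left out (adjusted p up to 0.26 for BT2 and 0.192 for BT1, edgeR).

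LBD37, a repressor of nitrogen-responsive genes, had 147, 148 and 137 CPM in TGA4_5N and 24.5, 17 and 17.8 CPM in TGA4_0N (log2 fold change 2.86 ± 0.48, adjusted p = 0.00692, edgeR). Its relatives LBD38 and LBD39 had separate groups and no call, LBD38 with 54.5, 51.1 and 54.6 CPM in TGA4_5N and 23.4, 25.1 and 21.9 CPM in TGA4_0N (adjusted p = 0.459, edgeR). LBD39 had 2.8, 4.7 and 4.44 CPM in TGA4_5N and 1.37, 0.657 and 0.993 CPM in TGA4_0N. HRS1 and HHO2, GARP repressors that join nitrate with phosphate signals, were both called. HRS1 had 30.5, 32.9 and 27.3 CPM in TGA4_5N and 5.57, 6.66 and 6.16 CPM in TGA4_0N (log2 fold change 2.29 ± 0.43), and HHO2 had 309, 313 and 298 CPM in TGA4_5N and 99.9, 92.6 and 105 CPM in TGA4_0N (log2 fold change 1.63 ± 0.27). HHO3 of the same family had 578, 527 and 612 CPM in TGA4_5N and 343, 329.6 and 336 CPM in TGA4_0N but did not pass the test (log2 fold change 0.77 ± 0.19, adjusted p = 0.132, edgeR).

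NLP3 was the only listed NIN-like gene called, with 30.9, 31.5 and 28 CPM in TGA4_5N and 5.26, 5.54 and 5.76 CPM in TGA4_0N (log2 fold change 2.45 ± 0.27, adjusted p = 0.000146, edgeR). NLP7, the nitrate sensor and main activator of the family, whose protein rather than transcript is known to respond, had 68.4, 63.3 and 65.4 CPM in TGA4_5N and 79.6, 66.6 and 67.9 CPM in TGA4_0N, and the groups overlapped (log2 fold change -0.12 ± 0.12). TGA1, the closest relative of TGA4, had 177, 178 and 184 CPM in TGA4_5N and 120.3, 121 and 142 CPM in TGA4_0N, with separate groups and no call (log2 fold change 0.49 ± 0.17, adjusted p = 0.583, edgeR). CDF1, a DOF factor, had 24.2, 27.3 and 23.3 CPM in TGA4_5N and 11.9, 9.85 and 12.2 CPM in TGA4_0N (adjusted p = 0.0781, edgeR). HHO1 was under 1 CPM in each library (log2 fold change 2.42, adjusted p = 0.797, edgeR). The other 14 regulators tested had log2 fold changes between -1.16 and 1.4 and none was called.

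For the step after nitrite reduction, none of 12 tested genes of ammonium assimilation was called in either direction by edgeR or by DESeq2, 3 were higher and 1 lower at an unadjusted p under 0.05, and the median log2 fold change was 0.24. GS2, the plastid glutamine synthetase, came closest, with 8.18, 6.12 and 9.25 CPM in TGA4_5N and 2.1, 4.13 and 3.18 CPM in TGA4_0N (log2 fold change 1.32 ± 0.38, adjusted p = 0.328, edgeR). GLT1, the NADH-dependent glutamate synthase, had 674, 657 and 596 CPM in TGA4_5N and 464, 477 and 457 CPM in TGA4_0N (log2 fold change 0.46 ± 0.19). In both genes the groups did not overlap, and both were called higher in the fit on the 6 TGA4 libraries alone. Of the 12 genes, 4 had the groups apart with nitrate higher and 3 with nitrate lower, where 6.6% and 6.37% of all genes did. DiT1, the plastid carrier that brings in 2-oxoglutarate, the carbon acceptor of this step, was not on the list and was called, with 20.7, 21.8 and 20.7 CPM in TGA4_5N and 11.2, 12.1 and 10.6 CPM in TGA4_0N (log2 fold change 0.89 ± 0.19, adjusted p = 0.0468, edgeR). It was one of the 2 weakest calls, together with AT2G48080, and NIA1 was the first gene beyond them.

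**Figure D3:**
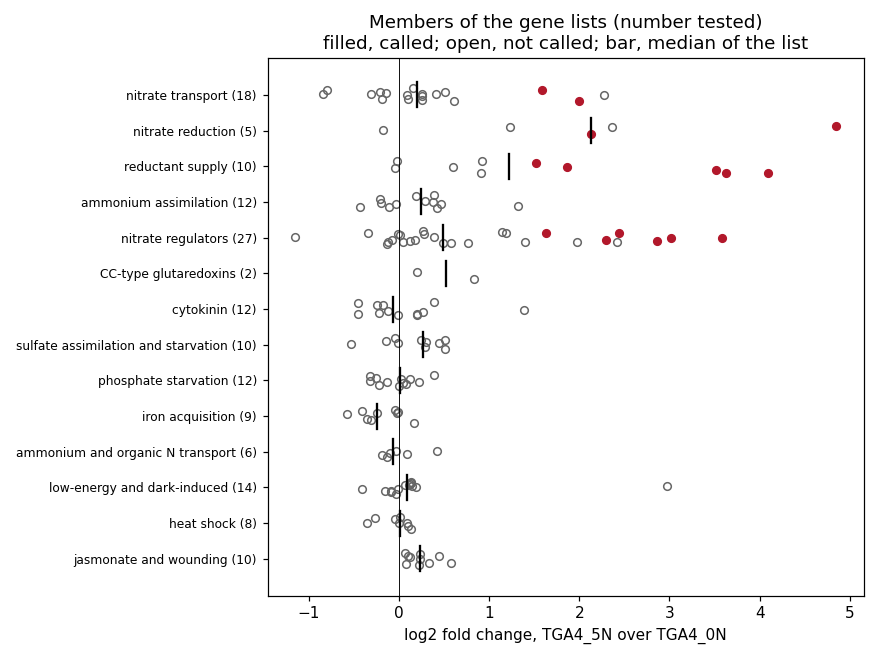
Log2 fold change (horizontal axis, TGA4_5N over TGA4_0N) of each tested member of 14 gene lists (rows, with the number tested), filled where called and open where not, with the list median as a bar. The 15 called members belong to nitrate transport, nitrate reduction, reductant supply and nitrate regulators, and no member of the other 10 lists was called.

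The other 35 called genes were on none of the lists. The largest rise of all was that of AT5G10210, annotated by RefSeq as a nitric oxide synthase-interacting protein, with 51.5, 50.8 and 38 CPM in TGA4_5N and 1.16, 0.844 and 0.794 CPM in TGA4_0N (log2 fold change 5.64 ± 0.9, adjusted p = 0.005, edgeR). AT5G65030 carries the same annotation and had 6.19, 8.68 and 6.54 CPM in TGA4_5N and 1.05, 1.31 and 1.99 CPM in TGA4_0N (log2 fold change 2.28 ± 0.4). A second pair came from the HPP family of integral membrane proteins, which holds plastid nitrite transporters. AT5G62720 had 12.7, 12.5 and 13.6 CPM in TGA4_5N and 0.315, 0.751 and 0.894 CPM in TGA4_0N (log2 fold change 4.27 ± 0.7), and AT3G47980 had 12.1, 15.8 and 13.7 CPM in TGA4_5N and 3.89, 2.63 and 2.58 CPM in TGA4_0N (log2 fold change 2.19 ± 0.33). MOT2, which carries molybdate, the metal of the nitrate reductase cofactor, had 28.3, 23.2 and 20.1 CPM in TGA4_5N and 11.8, 7.04 and 9.04 CPM in TGA4_0N (log2 fold change 1.37 ± 0.24). AT2G48080, an oxygenase of the 2OG-Fe(II) family, had 12.1, 9.54 and 9.74 CPM in TGA4_5N and 2.42, 2.44 and 1.99 CPM in TGA4_0N (log2 fold change 2.2 ± 0.46), and lost its call under 12 of the 18 alternatives.

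Enzymes of sugar phosphate metabolism were found among these 35 after their values were seen, and are described one by one for that reason. A transketolase (AT3G60750), which works in the non-oxidative part of the pentose phosphate pathway, had 67.6, 68.6 and 64.9 CPM in TGA4_5N and 23.6, 24.9 and 22.1 CPM in TGA4_0N (log2 fold change 1.51 ± 0.22). Phosphoglucose isomerase PGI1, which returns fructose 6-phosphate to glucose 6-phosphate, had 52.2, 54.7 and 60.7 CPM in TGA4_5N and 26.8, 30.1 and 29.4 CPM in TGA4_0N (log2 fold change 0.96 ± 0.18). A phosphoglycerate mutase (AT1G78050), the plastid enolase ENO1 and a pyruvate kinase (AT2G36580), enzymes of the lower part of glycolysis, had log2 fold changes of 1.35 ± 0.28, 0.64 ± 0.12 and 0.67 ± 0.12. Amino acid synthesis was represented by ketol-acid reductoisomerase (AT3G58610), which acts in the making of branched-chain amino acids, with 112, 107 and 106 CPM in TGA4_5N and 47.6, 37.2 and 37.6 CPM in TGA4_0N (log2 fold change 1.41 ± 0.18). ATP-PRT1, the first enzyme of histidine synthesis, had 40.5, 45.5 and 41.4 CPM in TGA4_5N and 14.5, 15.3 and 15.1 CPM in TGA4_0N (log2 fold change 1.5 ± 0.28). UMAMIT36, of a family of amino acid exporters, had 50.6, 46 and 46.4 CPM in TGA4_5N and 18.8, 25.8 and 22 CPM in TGA4_0N (log2 fold change 1.1 ± 0.18).

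Further calls had smaller or less studied products. MDAR6, a monodehydroascorbate reductase, had 97.8, 103 and 104 CPM in TGA4_5N and 35, 34.8 and 36.7 CPM in TGA4_0N (log2 fold change 1.52 ± 0.25). BRXL4, related to the root growth regulator BREVIS RADIX, had 22, 24.2 and 29.6 CPM in TGA4_5N and 8.09, 7.22 and 7.55 CPM in TGA4_0N (log2 fold change 1.73 ± 0.24), and PMEAMT, a methyltransferase of phospholipid head groups, had 35.3, 51.1 and 41.8 CPM in TGA4_5N and 10.7, 11 and 14.3 CPM in TGA4_0N (log2 fold change 1.83 ± 0.3). The smaller rises included genes of abscisic acid, namely the receptor gene PYL4 (log2 fold change 0.69 ± 0.12) and CYP707A3, whose product breaks the hormone down, with 486, 599 and 460.5 CPM in TGA4_5N and 295, 371 and 316 CPM in TGA4_0N (log2 fold change 0.65 ± 0.13). The 14-3-3 gene AT4G09000 and its neighbour TL29 overlap at their 3′ ends on opposite strands and were both called, AT4G09000 with 262, 236 and 262 CPM in TGA4_5N and 129, 122 and 119.7 CPM in TGA4_0N, and TL29 with 3.39, 5.55 and 4.32 CPM in TGA4_5N and 0.841, 1.59 and 1.39 CPM in TGA4_0N. Since strand use was not stated, reads of TL29 cannot be told apart from reads of its more strongly read neighbour, and TL29 was also the only called gene with a mean under 3 CPM. UPM1, PGD1, ENO1, DiT1, MOT2, AT5G10210, AT5G65030, AT1G78050, AT2G36580, AT1G80320, AT1G14260 and AT5G39590 also overlap annotated neighbours on the other strand.

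The 10 lists for other nutrients, hormones and stresses held no called gene. They were CC-type glutaredoxins, cytokinin, sulfate, phosphate and iron supply, ammonium and organic N transport, low-energy and dark-induced genes, heat shock, and jasmonate and wounding, with 2 to 14 genes tested in each, and ammonium assimilation as given above. The medians of the lists lay between -0.24 (iron acquisition, 9 tested) and 0.52 (CC-type glutaredoxins, of which only 2 of 11 passed the filter on low counts). DESeq2 called none of these genes either, and in each of the lists other than ammonium assimilation 0 to 2 genes were higher and 0 lower at an unadjusted p under 0.05. The fit on the 6 TGA4 libraries alone called 1 gene higher in each of the sulfate and low-energy lists. DIN11, listed with the dark-induced genes, had the largest value among them, with 3.04, 5.69 and 1.85 CPM in TGA4_5N and 0.526, 0.657 and 0.0993 CPM in TGA4_0N (log2 fold change 2.98 ± 1.05, adjusted p = 0.624, edgeR).

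No gene was called lower with nitrate in the fit of all 18 libraries, and the gene that came closest was DGR1 (AT1G80240), with 65.6, 53.9 and 59.6 CPM in TGA4_5N and 83.3, 83.2 and 91.4 CPM in TGA4_0N (log2 fold change -0.52 ± 0.12, adjusted p = 0.0829, edgeR). DGR1 was called lower by DESeq2 (adjusted p = 0.0126), and by edgeR without EV_60N replicate 1 (adjusted p = 0.0148) and on the 6 TGA4 libraries alone (adjusted p = 0.0205). HAT2, an auxin-responsive homeobox gene, had 22.8, 25.2 and 23.2 CPM in TGA4_5N and 43.7, 35.4 and 32.4 CPM in TGA4_0N (log2 fold change -0.65 ± 0.16, adjusted p = 0.168, edgeR). In EV cells, whose libraries are others, DGR1 was called lower with nitrate (log2 fold change -0.75, adjusted p = 0.00357) and so was HAT2 (log2 fold change -0.89, adjusted p = 0.0101). The fit on the 6 TGA4 libraries alone called 11 genes lower, with log2 fold changes between -0.80 and -0.43. Besides DGR1, HAT2 and NRT2.5 they included ABI1, a phosphatase that restrains abscisic acid signalling (64.4, 53.5 and 57.5 CPM in TGA4_5N and 76.5, 91.3 and 93.1 CPM in TGA4_0N), and the basic chitinase gene HCHIB (103, 98.4 and 91 CPM in TGA4_5N and 137, 138 and 139 CPM in TGA4_0N).

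CASP1, which builds the Casparian strip of the endodermis, had 2.92, 4.27 and 9.25 CPM in TGA4_5N and 16.1, 10.4 and 13.9 CPM in TGA4_0N (log2 fold change -1.29 ± 0.3, adjusted p = 0.108, edgeR). It was called lower by DESeq2 (adjusted p = 0.0079), and by edgeR with no filter on low counts (adjusted p = 0.00143) and without EV_60N replicate 1 (adjusted p = 0.0401). TGA4_5N replicate 3 lay above the other 2 of its group, and without it the adjusted p was 0.0067 with a log2 fold change of -1.91. The 8 endodermis markers together summed to between 52 and 63.8 CPM in TGA4_5N and between 69.2 and 82.7 CPM in TGA4_0N, without overlap, and none of them was at 0 in all libraries of a group. In EV cells the same sum was between 78.4 and 102 CPM in EV_5N and between 77.9 and 86.5 CPM in EV_0N. The part of endodermal cell numbers in the value of CASP1 was not tested. Markers of root hair cells (5.55 to 14.8 CPM in TGA4_5N, 9.35 to 9.76 CPM in TGA4_0N) and of root cap and meristem (13.1 to 17.8 CPM in TGA4_5N, 14.9 to 21.4 CPM in TGA4_0N) overlapped between the groups.

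To ask whether TGA4 altered the nitrate response, the same contrast was taken in EV cells, whose libraries are not shared with TGA4 cells. Each vector was a single transfection, so an effect of TGA4 on the response cannot be told apart from a difference between transfections. In EV cells 292 genes were called, 190 higher (1.04% of genes tested) and 102 lower (0.556%). Of the 50 genes called in TGA4 cells, 41 were called in EV cells as well, all 41 in the same direction, which is 82% of the TGA4 list and 14% of the EV list. All 50 had a positive fitted log2 fold change in EV cells, where the median over all genes was -0.023. The EV count was 56 when only the EV libraries of these doses were fitted. Leaving out EV_0N replicate 1, 2 or 3 gave 301, 53 and 31 calls, and leaving out EV_5N replicate 1, 2 or 3 gave 460, 156 and 175. Of the 301 genes, 140 were higher and 161 lower, and 194 were among the 292. DESeq2 called 741.

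Read the other way, most genes called in EV cells had the same sign in TGA4 cells. Of the 190 genes called higher in EV cells, 184 had a positive log2 fold change in TGA4 cells, with a median of 0.34 in TGA4 cells and 0.77 in EV cells. Of the 102 called lower, 89 had a negative one, with a median of -0.25 in TGA4 cells and -0.80 in EV cells. The EV values chose these genes and the TGA4 values chose the 50, so the medians are descriptions and their sizes were not compared. For the 50, the medians were 1.61 in TGA4 cells and 1.14 in EV cells.

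The difference between the responses was tested directly, as the nitrate response in TGA4 cells minus that in EV cells. No gene was called in either direction (0% of 18342, edgeR), 881 genes had an unadjusted p under 0.05, DESeq2 called 0, and the smallest adjusted p was 0.938. Without EV_60N replicate 1, 1 gene was called, PGD3, whose response was larger in TGA4 cells by a log2 difference of 1.01 ± 0.15 (SE, adjusted p = 0.0405, edgeR). PGD3 had 71.3, 74.4 and 76.5 CPM in EV_5N and 10.9, 12.2 and 12.8 CPM in EV_0N, beside the TGA4 values above. In the fit of all 18 libraries its difference was 1.01 ± 0.53 (SE) with a 95% interval from -0.10 to 2.12. The interval for NIR1 ran from -0.43 to 2.52 around a difference of 1.05, for NRT2.1 from -0.16 to 1.59 around 0.72, for NLP3 from -0.55 to 1.05 around 0.25, and for BT1 from -2.12 to 1.35 around -0.38. Each of these intervals includes 0 and also differences of at least 1 on the log2 scale, so equal responses were not shown. Their widths hold the spread of all 18 libraries, EV_60N replicate 1 included.

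**Figure D4:**
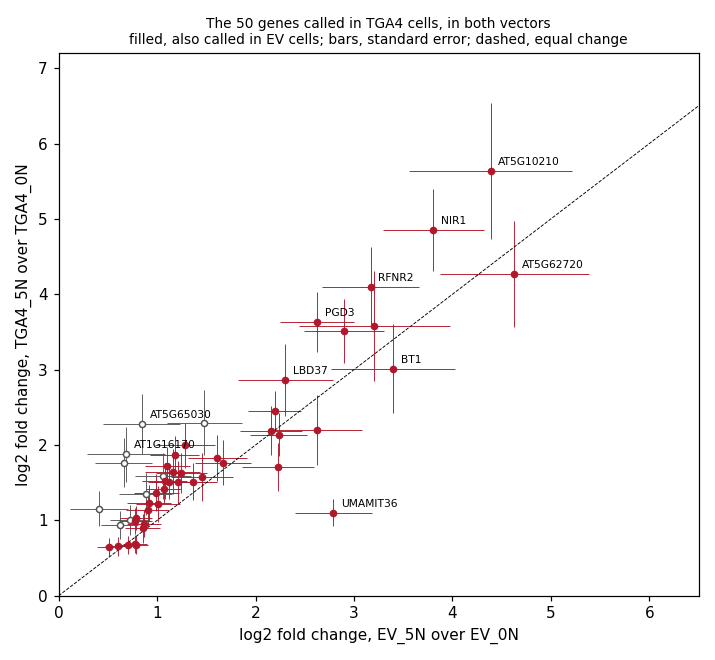
Log2 fold change with nitrate of the 50 genes called in TGA4 cells, in TGA4 cells (vertical axis, TGA4_5N over TGA4_0N) and EV cells (horizontal axis, EV_5N over EV_0N), with standard errors as bars and equal change as a dashed line. Filled points are the 41 genes called in both, UMAMIT36 lies farthest below the line, and all 50 lie to the right of 0.

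UMAMIT36 stood out among the 50 in this comparison, by choice after its values were seen. It had 3.18, 2.78 and 2.82 CPM in EV_5N and 0.486, 0.17 and 0.568 CPM in EV_0N, far below its levels in TGA4 cells at either dose. Its log2 fold change was 1.1 in TGA4 cells and 2.79 in EV cells, a difference of -1.69 with a 95% interval from -2.63 to -0.76 (unadjusted p = 0.00121, adjusted p = 0.938, edgeR). In the EV_0N libraries 3 counts equal 0.243 to 0.255 CPM, so UMAMIT36 was near that floor there and under it in replicate 2. Its EV fold change and the difference therefore rest on few counts. Other genes of the 50 with an unadjusted p under 0.05 were AT5G65030 (difference 1.44, interval 0.25 to 2.62), AT4G25835 (1.1, interval 0.18 to 2.02) and AT1G16170 (1.19, interval 0.07 to 2.31). Over all genes, the smallest p of the difference belonged to AT4G08940, NAC067, AT4G37010 and CASP1. AT4G08940 had a log2 fold change of -0.43 in TGA4 cells and 0.6 in EV cells. For NAC067, a NAC family gene, the values were -0.27 in TGA4 cells and 0.55 in EV cells, and for AT4G37010, a centrin, 0.34 and -1.15. CASP1 had -1.29 in TGA4 cells and 0.36 in EV cells. None of the 4 passed the adjustment.

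The dose with ammonium, TGA4_60N, was set beside TGA4_5N to see how far 5 mM nitrate had taken each gene. The direct contrast of TGA4_60N with TGA4_5N gave no call (0% of 18342, edgeR), with 1615 genes at an unadjusted p under 0.05, while DESeq2 called 110, edgeR without EV_60N replicate 1 called 85, and edgeR on these 6 libraries alone called 820. The members differed in the dose of their highest level. NIR1 averaged 6.33 ± 2.09 CPM in TGA4_0N, 184 ± 7.01 CPM in TGA4_5N and 124 ± 5.95 CPM in TGA4_60N (mean ± SD, n = 3 each, also below). RFNR2 averaged 4.41 ± 0.762, 75.8 ± 1.9 and 44.7 ± 2.45 CPM at 0N, 5N and 60N, and NRT2.1 averaged 18 ± 2.79, 72 ± 9.6 and 38.4 ± 3.29 CPM. In each of these 3 genes the TGA4_60N mean lay below the TGA4_5N mean and above the TGA4_0N mean. NLP3 had the same order, with 5.52 ± 0.253, 30.1 ± 1.87 and 22.5 ± 4.33 CPM.

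BT2, BT1 and HRS1 had their highest levels at the highest dose, as did both nitrate reductase genes. BT2 averaged 2.17 ± 0.773, 26 ± 5.66 and 75 ± 6.24 CPM at 0N, 5N and 60N, and BT1 averaged 16 ± 1.94, 129.5 ± 28.3 and 225 ± 9.35 CPM. HRS1 averaged 6.13 ± 0.546, 30.2 ± 2.82 and 53.7 ± 1.98 CPM. NIA1 averaged 9.96 ± 1.81, 51.3 ± 1.92 and 88.5 ± 6.68 CPM at 0N, 5N and 60N, and NIA2 averaged 192 ± 22.5, 452 ± 31.1 and 591 ± 35.1 CPM. These levels are descriptions, as no gene was called between TGA4_60N and TGA4_5N in the fit of all 18 libraries. TGA4_60N differed from TGA4_5N in nitrate dose and in ammonium, and the part of each cannot be told apart here. In the fit without EV_60N replicate 1, 8 of the 50 genes differed between TGA4_60N and TGA4_5N (edgeR), where 85 of all 18659 genes tested did. NRT2.1, G6PD3, RFNR2, PGD3 and UMAMIT36 were lower at 60N, with log2 differences between -0.91 and -0.6, and BT2, HRS1 and BT1 were higher, at 1.53, 0.83 and 0.8. On the 6 libraries of TGA4_60N and TGA4_5N alone, 820 of all 16997 genes tested were called (edgeR). These included the same 8 and further genes of the 50, such as NIR1 at -0.57, UPM1 at -0.30, AT5G10210 at 0.74 and LBD37 at 0.31. The 5N libraries that named the 50 genes also enter this contrast, so their values there are not independent of that choice. The 4 smallest p values over all genes in the 18-library fit were those of the chaperone genes Hop3, Hsp70b and HSP17.6C, with log2 differences of 1.35, 1.34 and 1.58, and of the oligopeptide transporter gene OPT2 at -1.04 (adjusted p = 0.104 for each, edgeR). At 5N these 4 genes were near their 0N levels, with log2 fold changes of -0.063, -0.065, -0.26 and 0.017 against TGA4_0N.

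The 50 genes were finally looked up in libraries with neither cycloheximide nor the TGA4 vector, where the nitrogen dose was the 60N mixture against KCl (4 libraries a group, edgeR). Dose, ammonium, cycloheximide, dexamethasone and vector all differ from the TGA4_5N comparison, so the values stand side by side and were not compared. In protoplasts, 40 of the 50 genes were called higher and none lower, where 1.53% of the 21007 genes tested were called higher and 0.876% lower. In whole roots, 27 were called higher and 11 lower, where 17.4% were called higher and 25.7% lower, so a called gene was common there in either direction. NRT2.1 had a log2 fold change of 2.0 in TGA4 cells at 5N, 1.21 in protoplasts and -4.03 in roots. NLP3 had 2.45 in TGA4 cells, 1.71 in protoplasts and -2.67 in roots. NPF6.3 had 1.59 in TGA4 cells, 1.28 in protoplasts and -1.35 in roots. BT2 had 3.58 in TGA4 cells, 3.96 in protoplasts and 7.31 in roots. NIR1 had 4.85 in TGA4 cells, 3.27 in protoplasts and 0.86 in roots. The median of the 50 genes was 1.61 in TGA4 cells at 5N, 1.09 in protoplasts and 0.41 in roots.

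**Figure D5:**
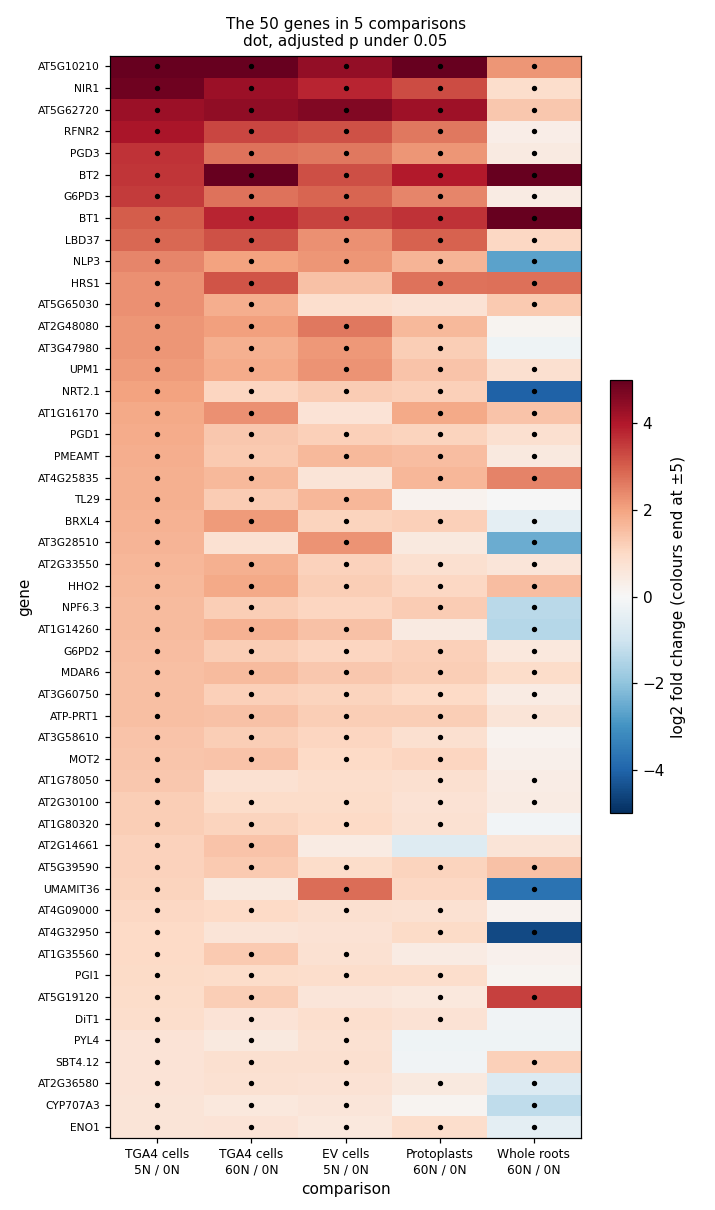
Log2 fold change with nitrogen (colour, red higher and blue lower, ending at 5 and -5) of the 50 called genes (rows, in the order of their change in TGA4 cells at 5N) in 5 comparisons (columns), with a dot where the adjusted p was under 0.05. Columns of TGA4 cells share their 0N libraries, NRT2.1, NLP3 and AT4G32950 are among the genes lower in whole roots, and the protoplast column has no gene called lower.

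Cycloheximide was added to both TGA4 groups after the nitrate or KCl. In the separate cycloheximide experiment, 48 of the 50 genes could be tested, and 4 changed more than 5-fold with the drug at an adjusted p under 0.05 (edgeR), where 6.21% of the 16616 genes tested in both experiments did. They were BT1, HHO2, CYP707A3 and AT3G28510, an ATPase gene, and all 4 were higher with cycloheximide, by log2 values of 2.92, 2.48, 4.87 and 4.19. AT3G28510 had 33.2, 33.2 and 35.4 CPM in TGA4_5N and 8.3, 12.3 and 10.4 CPM in TGA4_0N (log2 fold change 1.71 ± 0.32).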

How the data were processed

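RNA-seq libraries of sorted root protoplasts were compared. Reads were mapped by the authors, according to their methods, with TopHat2 to the TAIR10 genome and summed per gene with R packages for genomic ranges. The authors deposited raw counts per gene for each library, with no normalization. Strand use in counting was not given in the sources used here. The authors' model held a batch term, which the labels do not give and which was therefore not used.

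Here the counts of the 18 N-dose libraries (7835278 to 16214169 counts each) were fitted together in edgeR 4.0.16 (R 4.3.3) with one mean per group, TMM scaling, filterByExpr and the quasi-likelihood F-test. Genes were called at a Benjamini-Hochberg adjusted p under 0.05 over all 18342 genes tested. Standard errors were derived from the F statistic of each gene, and intervals of 95% used the fit's degrees of freedom. The roots and protoplasts (16 libraries) and the cycloheximide experiment (12 libraries) were fitted apart. DESeq2 1.42.0, RLE scaling, no filter, a replicate block, the libraries of the contrast alone and leaving out single libraries were the alternatives. The fits were tested on simulated counts.

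Symbols, gene positions and sequence came from RefSeq TAIR10.1 (99.33% of 33016 IDs matched in the N-dose tables), and a symbol that several loci share was replaced by the locus ID. Motifs were searched from 500 bases before to 200 bases after the annotated start. Named genes were the 12 called genes with the largest change, the 6 with the smallest p, called or defining members of the 5 nitrogen lists, and the 4 with the smallest p in each further contrast, and other called genes were named after their values were seen. Members and lists were chosen with earlier results of these data known. Replicates were wells of one transfection, so p-values measure the spread between wells only, and floors of 3 counts cover counting error only. In the main fit that spread, and with it each standard error and interval, was pooled over all 18 libraries, EV_60N replicate 1 included. For the log2 fold change of NIA1 in TGA4 cells, the standard error was 0.51 in that fit and 0.13 on the 6 TGA4 libraries alone.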

Additional observations from a re-analysis of the deposited data

How the results depend on the processing

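Among single genes in TGA4 cells, no call changed direction under any alternative. The balance of calls did shift in other contrasts. In EV cells 190 were higher and 102 lower, and without EV_0N replicate 1, 140 were higher and 161 lower. For TGA4_60N against TGA4_5N, 348 were higher and 472 lower on the libraries of the contrast alone. Without EV_60N replicate 1, 47 were higher and 38 lower. Of the values of single genes, 992 kept their side of the threshold, 186 lost the call and 45 gained it. For the nitrate response of TGA4 cells (50 calls), the count was 116 with only the libraries of the contrast, 89 with no filter on low counts, 79 with DESeq2, 53 with RLE size factors and 41 with a log2 fold change of at least 1 required, and between 15 and 84 with single libraries left out. The genes called from the lists (15) numbered 32 with only the libraries of the contrast, 27 with no filter and 9 to 28 with single libraries left out. For EV cells (292), the counts were 56, 718 with no filter, 741 with DESeq2, 79 with the fold required and 31 to 460 with single libraries left out. The difference between the responses (0) stayed within 0 to 1 with single libraries left out. TGA4_60N against TGA4_5N (0) gave 820, 104 with no filter, 110 with DESeq2 and 0 to 85 with single libraries left out. The cause of these shifts was not tested. Of the 50 genes, 14 were kept under each of 18 alternatives and 36 were lost under at least 1. With replicate number as a block, the counts were 52 (TGA4), 299 (EV), 0 (difference), 0 (60N against 5N) and 16 (lists). The deviations of same-numbered TGA4_5N and TGA4_0N libraries correlated at 0.0408, 0.0397 and 0.00149, so the numbers were not taken to pair the samples. The TGA4_5N libraries were the shallowest of the 6, and 3 counts in them equal 0.35 to 0.427 CPM, which limits genes of a few CPM.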
